A study of Mus musculus with 6 samples.

Results

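The genes described here are those of the developing red blood cell. They encode the adult globins, the enzymes and carriers of heme synthesis, the membrane skeleton and surface antigens of the erythrocyte, and the transcription factors and receptor that drive erythroid differentiation. A list of 35 such genes was taken by gene symbol, and all 35 were found among the 17854 genes of the deposited table. They were compared in Tomato+ cells sorted from mouse knee cartilage, in 3 libraries labelled InjectPrrx and 3 labelled NativePrrx, all labelled as chondrocytes of male C57BL/6 mice. The InjectPrrx cells, called MSC-derived cells below, came from repaired articular cartilage of mice with knee osteoarthritis, which had their anterior cruciate ligament cut at 8 weeks of age and received an injection into the joint 4 weeks later. The injected cells were Tomato+ cells sorted from inguinal white adipose tissue of *Prrx1-Cre; R26tdTomato* donors and not cultured, so that in these recipients the tdTomato reporter was carried by the injected cells alone. The NativePrrx cells, called endogenous cells below, were the Tomato+ cells of the articular cartilage of age- and sex-matched *Prrx1-Cre; R26tdTomato* mice, with no injection named. In these mice the *Prrx1* driver marks all descendants of limb mesenchyme that expressed *Prrx1*, not chondrocytes alone. Ligament surgery, injection, host genotype and origin of the cells therefore all differed between the groups and cannot be told apart. The methods name collagenase digestion and sorting for Tomato, and no antibody against blood cells for this sort. The time of harvest for sequencing is not given in the sources used here, and the methods give 3 mice per group, although no label ties a library to a mouse. The p-values measure the spread between these libraries, which may be technical.

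Red cells are made in the bone marrow from progenitors that depend on erythropoietin. The transcription factors *Gata1*, *Tal1* and *Klf1* switch on the globin genes, the heme pathway and the proteins that shape the red cell membrane. Alpha- and beta-globin chains pair around heme to form hemoglobin, and free alpha-globin is held by a chaperone until it is paired. Erythroblasts mature around a central macrophage, the erythroblastic island, before they lose their nucleus. Articular cartilage has no blood vessels and chondrocytes are not known as a source of red cells.

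The promoters of 7 genes are shown because they cover both globin loci, the erythroid first step of heme synthesis, a master regulator and the receptor that differed most between the groups. The sequences are those of RefSeq on GRCm38.p6, a newer build than the mm9 named for the deposited files, and each is the 150 bases before the annotated start, written 5′ to 3′ on the strand of the gene. They lie at chr11:32283522-32283671 on the plus strand for *Hba-a1*, chr11:32296342-32296491 on the plus strand for *Hba-a2*, chr7:103827929-103828078 on the minus strand for *Hbb-bs* and chr7:103813924-103814073 on the minus strand for *Hbb-bt*. The others lie at chrX:150547267-150547416 on the plus strand for *Alas2*, chr8:84901832-84901981 on the plus strand for *Klf1* and chr9:21963577-21963726 on the minus strand for *Epor*. Capitals mark matches, on either strand, to 4 short motifs. They are AGATAA, a form of the site that GATA factors bind, then CCACACCC, a form of the site that *Klf1* binds, and the general promoter elements CCAAT and, nearer the start, TATAAA. A match on the other strand appears as its reverse complement.
Hba-a1: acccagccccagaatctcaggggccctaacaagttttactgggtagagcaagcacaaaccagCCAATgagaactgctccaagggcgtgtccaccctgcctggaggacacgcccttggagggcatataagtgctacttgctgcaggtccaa
Hba-a2: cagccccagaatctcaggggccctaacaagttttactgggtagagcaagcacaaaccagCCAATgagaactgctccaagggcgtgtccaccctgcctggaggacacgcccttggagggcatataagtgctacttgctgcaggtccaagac
Hbb-bs: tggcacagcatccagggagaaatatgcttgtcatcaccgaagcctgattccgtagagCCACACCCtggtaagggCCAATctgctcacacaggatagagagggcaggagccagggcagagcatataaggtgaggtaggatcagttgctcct
Hbb-bt: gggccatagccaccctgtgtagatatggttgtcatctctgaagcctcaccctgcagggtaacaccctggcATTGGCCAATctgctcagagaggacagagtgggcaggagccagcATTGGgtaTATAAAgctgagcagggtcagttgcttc
Alas2: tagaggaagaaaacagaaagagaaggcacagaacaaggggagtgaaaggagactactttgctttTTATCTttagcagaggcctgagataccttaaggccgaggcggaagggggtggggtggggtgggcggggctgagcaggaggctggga
Klf1: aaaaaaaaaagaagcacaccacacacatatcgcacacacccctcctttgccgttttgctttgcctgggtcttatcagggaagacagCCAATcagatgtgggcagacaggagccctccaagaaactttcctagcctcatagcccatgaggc
Epor: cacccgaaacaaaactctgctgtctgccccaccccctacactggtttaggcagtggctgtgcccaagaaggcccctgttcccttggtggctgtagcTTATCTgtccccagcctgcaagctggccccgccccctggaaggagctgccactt

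The CCAAT letters stood 88 bases before the start of *Hba-a1* and 91 before that of *Hba-a2*. Aligned to each other, the alpha-globin windows were identical over 147 bases and differed only by where the start is annotated. The beta-globin windows matched at 109 of 148 aligned bases, with 39 mismatches. In *Hbb-bs* the CCACACCC letters began 93 bases before the start and CCAAT 76 bases before it, whereas *Hbb-bt* had CCAAT at 75 bases, 2 matches on the other strand at 80 and 36 bases, and TATAAA at 28 bases. *Alas2* and *Epor* held the AGATAA letters on the other strand, 86 and 54 bases before their starts. Of the 35 genes, 28 had a promoter entry. In the 250 bases before the start, AGATAA was found on either strand in 9 of these 28 (32.1%), namely *Alas2*, *Epb42*, *Epor*, *Hbb-bs*, *Icam4*, *Kel*, *Rhd*, *Tal1* and *Trim10*, and in 11.4% of 27025 genes with an entry. The match of *Hbb-bs* lay upstream of the stretch printed above. CCAAT was found in 14 of 28 (50%) and in 37.5% of all genes. CCACACCC was found in *Hbb-bs* alone (3.57%, against 3.68% of all genes), and TATAAA in 4 (14.3%, as in 14.3% of all genes). These matches describe letters and were not tested as binding sites.

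The libraries held between 22060628 and 24881796 expected counts. Library 1 of the endogenous cells stood apart from its group, with 3459 genes at 0 against 1338 and 1395 in the other endogenous libraries, and values without it are given beside the results it altered most. The labelled cell type was checked with 10 chondrocyte markers, and all 10 were lower in the MSC-derived cells, by a median of -6.10 on the log2 scale and with sums of 2407 to 2484 TPM against 25909 to 29051 TPM. Most of the MSC-derived sum was *Prg4*, lubricin, named after its values were seen, which fell by 0.51 on the log2 scale, and the other 9 summed to 432 to 445 TPM against 22403 to 24203 TPM. *Col2a1*, the main collagen of cartilage, had 118, 118 and 126 TPM (a transcript level corrected for length and scaled to one sum in all libraries) in the MSC-derived libraries and 14056, 12480 and 12367 TPM in the endogenous ones, and *Acan*, the cartilage proteoglycan, fell by 5.55 on the log2 scale. All 6 osteoblast markers were lower as well, with sums of 565 to 586 TPM against 53268 to 68771 TPM. In every endogenous library the osteoblast sum was above the chondrocyte sum, so the endogenous libraries did not hold chondrocyte transcripts alone. Markers of neutrophils and of leukocytes in general moved the other way. All 10 neutrophil markers were higher, summing to between 149960 and 158522 TPM against 8323 to 11776, and *S100a8* rose by 4.63 on the log2 scale. All 10 general leukocyte markers were higher too, with *Ptprc* (CD45) at 4.20. In bulk RNA, more cells of a type and more RNA per cell cannot be told apart. The low chondrocyte and high leukocyte markers do not bear out the label of chondrocytes for the MSC-derived libraries. The name MSC-derived cells follows the study, and descent of the sequenced cells from the injected ones was not tested.

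The question was how the erythroid genes differed between the libraries named MSC-derived and those named endogenous. Of the 35 genes, 33 were higher in the MSC-derived cells, 1 was lower (*Gypc*) and 1 did not pass the test (*Uros*), by edgeR's quasi-likelihood test with an adjusted p of 0.05 or less. Among all 14289 genes tested, 31.3% were called higher and 30.3% lower. The median log2 fold change of the 35 genes was 1.73, with a range from -0.44 to 4.56, beside 0.05 for all genes tested. A call with a log2 fold change of 1 or more was made for 30 of them and for 19.3% of all genes. In CPM, counts scaled to library size, 34 genes showed no overlap between the groups, 33 of them higher and 1 lower, while 38.2% of all genes were higher and 34.1% lower without overlap. Without endogenous library 1, 34 were called higher and 1 lower, beside 37.8% and 38.6% of all genes, and the median was 1.67. DESeq2 also called 33 higher, beside 28.8% of all genes. All 35 genes passed the filter on low counts, and the lowest expected count of any of them in any library was 30, for *Icam4*, so none rested on a few reads.

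Fold changes are given from the counts, and levels in TPM. The scales differ, because the median log2 fold change of all genes was -0.28 on the log2(TPM + 1) scale against 0.05 from the counts. In TPM, 33 of the 35 genes were free of overlap, 32 higher and 1 lower, beside 25.2% and 47.4% of all genes, and the other 2 were *Uros* and *Cpox*. By level the list spans from *Sptb*, with a mean of 1.22 TPM in the MSC-derived cells, to *Hba-a2*, with 33185.

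**Figure D1:**
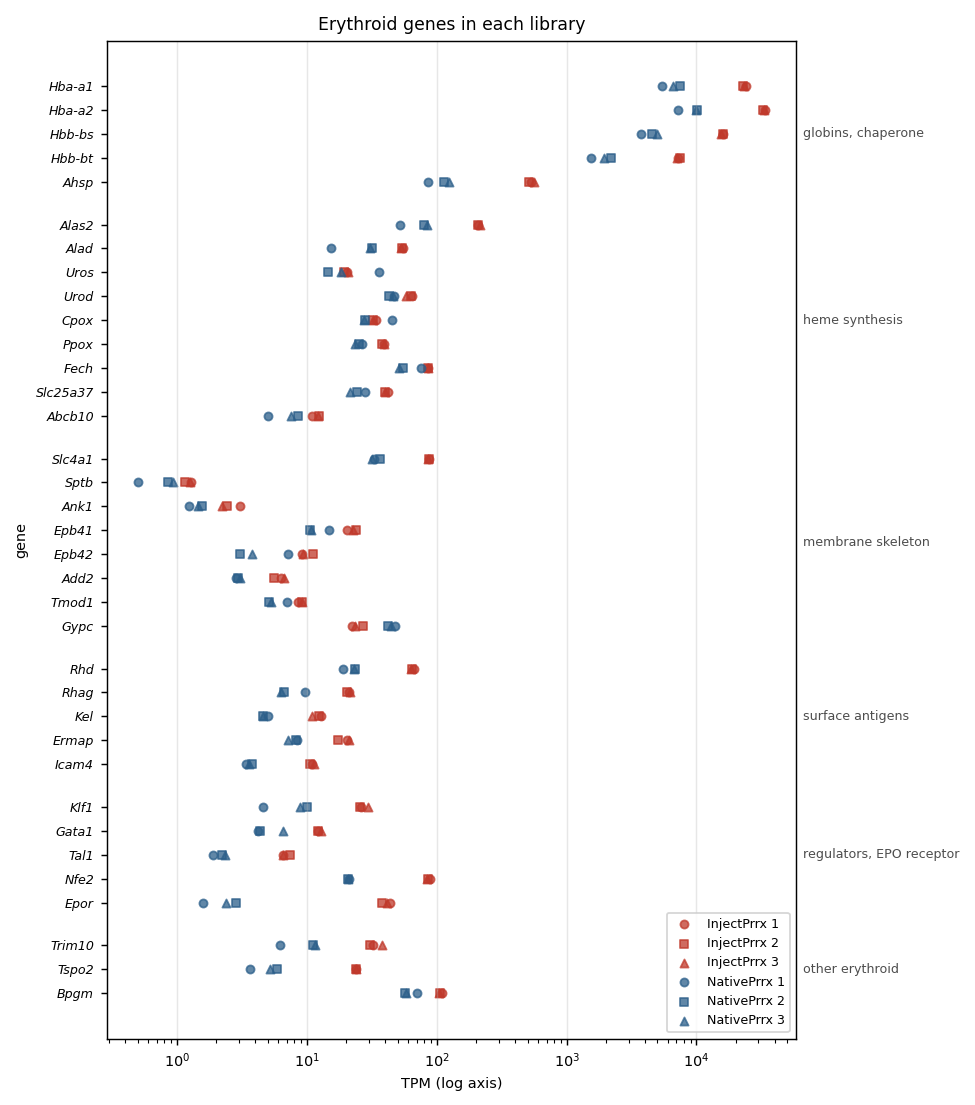
Level of each of the 35 erythroid genes in each library in TPM, on a log axis, with one point per library and the genes grouped by role. The MSC-derived points lie to the right of the endogenous points for 32 genes, to the left for *Gypc*, and among them for *Uros* and *Cpox*.

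The adult globins were the most abundant of these transcripts in both groups and were 4.77- to 5.11-fold higher in the MSC-derived cells. *Hba-a1* (gene ID 15122), an alpha-globin gene, had 24232, 22964 and 23158 TPM in MSC-derived libraries 1, 2 and 3, and 5456, 7518 and 6551 TPM in endogenous libraries 1, 2 and 3. *Hba-a2* (gene ID 110257), the neighbouring alpha-globin copy, had 33702, 32798 and 33054 TPM against 7258, 10185 and 9886 TPM. Every MSC-derived library was above every endogenous one for both, and the MSC-derived libraries lay close together while endogenous library 1 was the lowest. The log2 fold changes were 2.27 (SE 0.15, adjusted p = 8.84e-06) and 2.28 (SE 0.17, adjusted p = 1.46e-05). *Hbb-bs* (gene ID 100503605), an adult beta-globin, had 15879.5, 16002 and 15395 TPM against 3769, 4535 and 4964 TPM. *Hbb-bt* (gene ID 101488143), the second adult beta-globin, had 7193, 7437 and 7088 TPM against 1543, 2186 and 1955 TPM. The groups were again apart, with endogenous library 1 lowest. These genes rose by 2.26 (SE 0.14, adjusted p = 6.00e-06) and 2.35 (SE 0.16, adjusted p = 1.17e-05) on the log2 scale.

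The coding sequences of *Hba-a1* and *Hba-a2* differ at 1 of 429 bases and those of *Hbb-bs* and *Hbb-bt* at 1 of 444, by the longest open reading frames of their GENCODE transcripts, so the split of reads within each pair is uncertain. Summed, the alpha-globin pair had a log2 fold change of 2.28 (SE 0.16, adjusted p = 1.12e-05) and the beta-globin pair one of 2.29 (SE 0.14, adjusted p = 6.40e-06). *Hba-a2* made up 58.6% ± 0.368 of alpha-globin TPM in the MSC-derived cells and 58.3% ± 1.65 in the endogenous cells (SD, n = 3 each), as the estimated counts divide them. The ratio of alpha- to beta-globin TPM was 2.51, 2.38 and 2.50 in the MSC-derived libraries and 2.39, 2.63 and 2.38 in the endogenous libraries, and the groups overlapped. The 4 globin genes together took 8.10%, 7.92% and 7.87% of all TPM in the MSC-derived libraries and 1.80%, 2.44% and 2.34% in the endogenous ones. The share therefore differed between the groups, although globin transcripts were present in all 6 libraries.

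*Ahsp* (gene ID 170812), the chaperone of free alpha-globin, had 530.2, 517 and 561 TPM in the MSC-derived libraries against 84.9, 114 and 124 TPM. Its levels did not overlap between the groups. Its log2 fold change was 2.73 (SE 0.18, adjusted p = 8.61e-06). Relative to alpha-globin it was also higher, at 9.15, 9.28 and 9.98 TPM per 1000 TPM of alpha-globin against 6.68, 6.41 and 7.54. Of the embryonic globins, *Hbb-y* was listed at 0.12 TPM in MSC-derived library 1 and at 0 in the other libraries, and it was not tested. *Hba-x*, *Hbb-bh1* and *Hbb-bh2* were not analysed here.

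Of the 9 genes of heme synthesis and mitochondrial heme transport, 8 were higher in the MSC-derived cells and *Uros* did not pass the test. Their median log2 fold change was 1.07, against 2.28 for the globins with *Ahsp*. *Alas2*, the erythroid enzyme of the first step, changed most, with 208, 209 and 213 TPM in the MSC-derived libraries and 52.3, 80.1 and 83.8 TPM in the endogenous libraries. *Alad*, the enzyme of the second step, had 55.3, 54.4 and 53.0 TPM against 15.4, 31.5 and 30.5 TPM. In both genes the groups were apart and endogenous library 1 was the lowest. *Alas2* rose by 1.96 (SE 0.22, adjusted p = 0.000149) and *Alad* by 1.43 (SE 0.32, adjusted p = 0.00591) on the log2 scale, and by 1.68 and 1.06 without endogenous library 1.

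The middle steps of the pathway differed less. *Uros* (gene ID 22276), which closes the porphyrin ring, had 20.3, 19.4 and 20.8 TPM in the MSC-derived libraries and 35.9, 14.5 and 18.2 TPM in the endogenous ones. Endogenous library 1 was above all others and the other 2 endogenous libraries were below the MSC-derived ones. Its log2 fold change from the counts was 0.29 (SE 0.23, adjusted p = 0.30), it was -0.07 by limma on log2(TPM + 1), and without endogenous library 1 it was 0.52 by edgeR (adjusted p = 0.000795). *Urod*, the decarboxylase of the next step, had 64.9, 62.8 and 58.4 TPM against 46.8, 42.6 and 46.3 TPM and rose by 0.87 (SE 0.09, adjusted p = 0.000142). *Cpox*, which makes protoporphyrinogen, had 34.3, 32.4 and 32.3 TPM against 45.4, 28.1 and 27.4 TPM. Endogenous library 1 was again the highest in TPM, while in CPM the groups did not overlap. *Cpox* had a log2 fold change of 0.44 (SE 0.15, adjusted p = 0.0374). This call was lost when any library other than endogenous library 1 was left out (adjusted p = 0.0844 to 0.110), while without endogenous library 1 the log2 fold change was 0.58.

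The last steps take place in the mitochondrion. *Ppox*, the oxidase before iron is inserted, had 39.3, 37.7 and 39.0 TPM against 26.4, 25.1 and 23.6 TPM and rose by 1.07 (SE 0.10, adjusted p = 5.36e-05). *Fech*, ferrochelatase, which inserts the iron, had 85.4, 85.9 and 85.8 TPM against 76.0, 54.9 and 51.3 TPM and rose by 0.95 (SE 0.11, adjusted p = 0.000166). For both, all MSC-derived libraries were above all endogenous ones. *Slc25a37*, mitoferrin-1, the mitochondrial iron importer of erythroid cells, had 41.8, 39.8 and 39.8 TPM against 27.8, 24.2 and 21.5 TPM, with a log2 fold change of 1.17 (SE 0.09, adjusted p = 1.50e-05). *Abcb10*, a mitochondrial transporter needed for hemoglobin synthesis, had 11.0, 12.5 and 12.2 TPM against 5.01, 8.60 and 7.53 TPM, with a log2 fold change of 1.17 (SE 0.24, adjusted p = 0.00396). Neither overlapped between the groups.

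**Figure D2:**
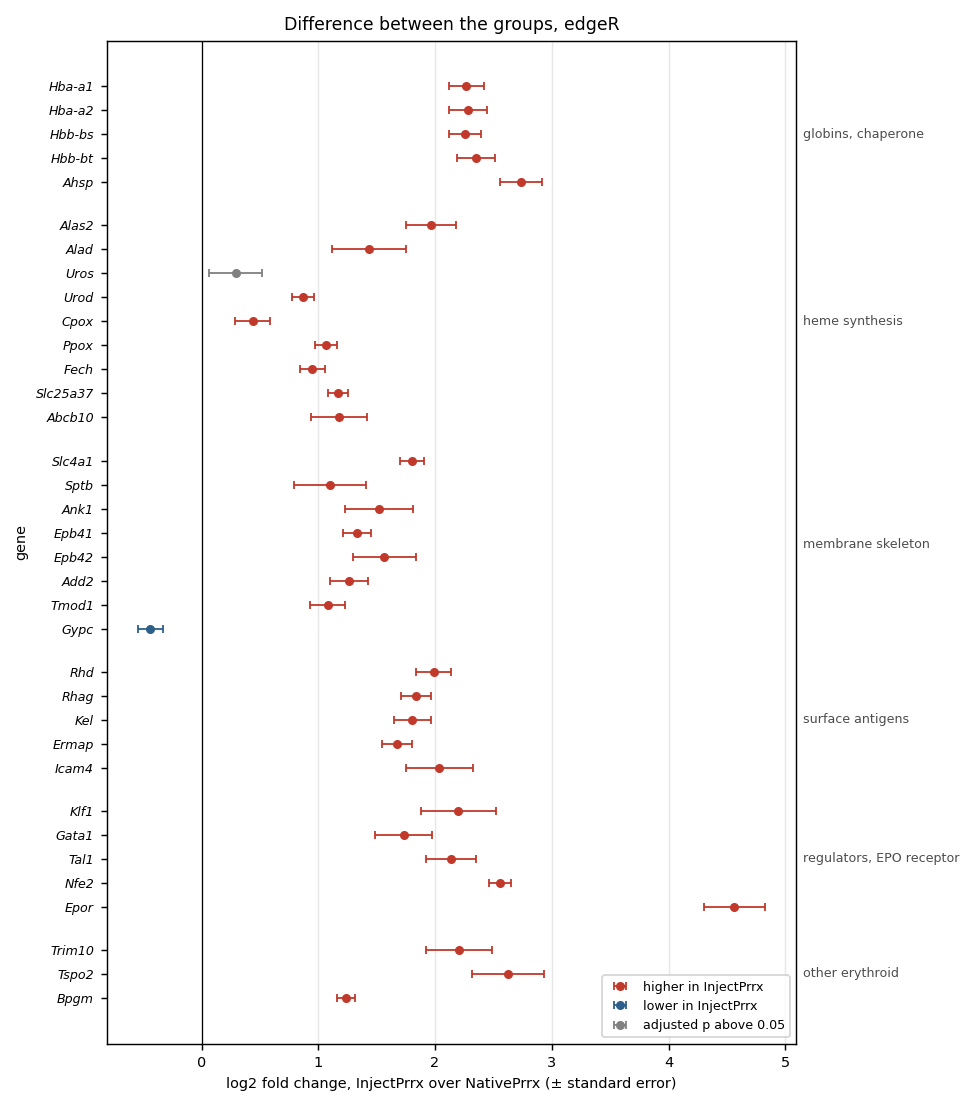
Log2 fold change of each gene, MSC-derived over endogenous, from edgeR with its standard error, grouped by role, with the vertical line at no difference. *Epor* lies farthest to the right at 4.56, and *Gypc* is the one gene left of the line, at -0.44.

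Of 8 genes of the membrane skeleton and its anchors, 7 were higher in the MSC-derived cells and *Gypc* was lower, with a median log2 fold change of 1.297. *Slc4a1*, band 3, the anion exchanger that anchors the skeleton, had 86.5, 86.9 and 85.8 TPM in the MSC-derived libraries and 32.7, 36.4 and 31.6 TPM in the endogenous ones. The groups were far apart relative to their spread, and the log2 fold change was 1.80 (SE 0.10, adjusted p = 3.84e-06). *Ank1*, erythrocyte ankyrin, which ties band 3 to spectrin, had 3.03, 2.42 and 2.21 TPM against 1.23, 1.55 and 1.46 TPM. *Sptb*, the erythrocyte beta-spectrin, had 1.27, 1.15 and 1.25 TPM against 0.50, 0.85 and 0.93 TPM. Both were low in TPM and neither overlapped. Their log2 fold changes were 1.52 (SE 0.29, adjusted p = 0.00277) and 1.10 (SE 0.31, adjusted p = 0.0165). For *Sptb* the adjusted p was 0.0571 without MSC-derived library 1 and 0.0556 without library 3.

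*Epb41*, protein 4.1, which joins spectrin to actin, had 20.3, 23.8 and 22.8 TPM against 14.9, 10.5 and 10.8 TPM, and rose by 1.33 (SE 0.12, adjusted p = 4.46e-05). *Epb42*, protein 4.2, which binds band 3, had 9.11, 11.2 and 9.40 TPM against 7.11, 3.04 and 3.76 TPM, and rose by 1.57 (SE 0.27, adjusted p = 0.00165). Endogenous library 1 was the highest of its group for both, and still below the MSC-derived libraries. *Add2*, beta-adducin, which caps the actin filaments of the skeleton, had 6.32, 5.55 and 6.65 TPM against 2.83, 2.95 and 3.07 TPM and a log2 fold change of 1.26 (SE 0.16, adjusted p = 0.000338). *Tmod1*, tropomodulin, which caps the other end of those filaments, had 8.60, 9.11 and 9.20 TPM against 7.06, 5.10 and 5.33 TPM and a log2 fold change of 1.08 (SE 0.15, adjusted p = 0.000558). No MSC-derived level of these 2 genes fell within the endogenous range. *Gypc* (gene ID 71683), glycophorin C, an anchor of protein 4.1 that is also made by many cells other than red cells, went the other way, with 22.1, 27.0 and 23.6 TPM in the MSC-derived libraries and 47.5, 42.0 and 44.4 TPM in the endogenous ones. All its endogenous levels were above all MSC-derived ones. It fell by 0.44 on the log2 scale (SE 0.11, adjusted p = 0.00892). Listed genes that rose can also be made by other cells. Which cells any of them came from was not tested.

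All 5 surface proteins of the blood group type were higher in the MSC-derived cells. Their median log2 fold change was 1.84. *Rhd*, the Rh polypeptide, had 66.6, 64.4 and 63.0 TPM in the MSC-derived libraries and 19.1, 23.6 and 23.1 TPM in the endogenous ones. *Rhag*, the glycoprotein with which it forms a complex, had 21.1, 20.4 and 21.6 TPM against 9.58, 6.66 and 6.37 TPM. The groups were apart in both, but endogenous library 1 was the lowest of its group for *Rhd* and the highest for *Rhag*. Their log2 fold changes were 1.99 (SE 0.15, adjusted p = 1.73e-05) and 1.84 (SE 0.13, adjusted p = 1.19e-05). *Kel*, the Kell metallopeptidase, rose by 1.81 (SE 0.16, adjusted p = 4.56e-05), from 5.02, 4.63 and 4.60 TPM in the endogenous libraries to 12.8, 12.3 and 11.0 TPM. *Ermap*, the Scianna antigen, rose by 1.67 (SE 0.13, adjusted p = 2.14e-05), from 8.44, 8.22 and 7.12 TPM to 20.2, 17.4 and 21.1 TPM. No level of *Kel* or *Ermap* in one group fell within the range of the other. *Icam4*, the Landsteiner-Wiener adhesion antigen, which binds integrins, rose by 2.04 (SE 0.29, adjusted p = 0.000570), from 3.37, 3.79 and 3.61 TPM to 10.9, 10.6 and 11.3 TPM.

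All 5 regulators were higher as well, with a median log2 fold change of 2.199. *Gata1*, the central erythroid transcription factor, had 12.3, 12.1 and 12.9 TPM in the MSC-derived libraries and 4.21, 4.32 and 6.57 TPM in the endogenous ones. *Tal1*, its partner in the erythroid complex, had 6.57, 7.40 and 6.60 TPM against 1.89, 2.23 and 2.32 TPM. *Klf1*, which activates adult beta-globin, had 25.9, 25.8 and 29.5 TPM against 4.61, 10.01 and 8.90 TPM. The MSC-derived libraries were above the endogenous libraries for all 3, and *Klf1* varied most among the endogenous libraries. *Gata1* rose by 1.73 (SE 0.24, adjusted p = 0.000580), *Tal1* by 2.14 (SE 0.21, adjusted p = 8.41e-05) and *Klf1* by 2.199 (SE 0.32, adjusted p = 0.000688) on the log2 scale. *Nfe2*, a subunit of the NF-E2 factor that is active in erythroid cells and megakaryocytes, had 88.2, 85.3 and 84.0 TPM against 20.9, 20.7 and 20.6 TPM. Its libraries agreed closely within each group, and its log2 fold change was 2.56 (SE 0.10, adjusted p = 5.53e-07).

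*Epor* (gene ID 13857), the erythropoietin receptor, had the largest difference of the 35 genes. It had 44.0, 37.8 and 41.0 TPM in the MSC-derived libraries and 1.58, 2.84 and 2.39 TPM in the endogenous ones. The lowest MSC-derived library was far above the highest endogenous one. It was 23.7-fold higher, a log2 fold change of 4.56 (SE 0.26, adjusted p = 4.15e-06), and 4.26 without endogenous library 1. The ratio of *Epor* to *Gata1* TPM was 3.58, 3.13 and 3.17 in the MSC-derived libraries and 0.375, 0.657 and 0.364 in the endogenous libraries. The ratio of *Klf1* to *Gata1*, in contrast, overlapped between the groups, at 2.11, 2.13 and 2.28 against 1.10, 2.32 and 1.35.

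The remaining 3 genes were higher too. *Trim10*, a TRIM family protein made in late erythroid cells, had 32.1, 30.5 and 38.1 TPM against 6.22, 11.1 and 11.6 TPM and a log2 fold change of 2.21 (SE 0.28, adjusted p = 0.000346). *Tspo2*, an erythroid membrane protein that binds cholesterol, had 24.0, 23.7 and 23.9 TPM against 3.66, 5.90 and 5.19 TPM and a log2 fold change of 2.62 (SE 0.31, adjusted p = 0.000221). Endogenous library 1 was the lowest for both, and the groups were apart. *Bpgm*, which makes the bisphosphoglycerate that loosens the hold of hemoglobin on oxygen, had 109, 107 and 105 TPM against 70.7, 57.2 and 58.2 TPM and rose by 1.24 (SE 0.07, adjusted p = 5.11e-06).

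The 35 genes varied more among the endogenous libraries than among the MSC-derived ones. The median coefficient of variation of their CPM was 3.34% in the MSC-derived group and 21.2% in the endogenous group, and 5.59% in the endogenous group without library 1. For all genes tested these medians were 7.56%, 19.7% and 6.61%. In CPM, endogenous library 1 was the lowest of its group for 24 of the 35 genes (68.6%) and the highest for 9 (25.7%), beside 47.3% and 42.8% of all genes tested. The 9 were *Epb41*, *Rhag*, *Add2*, *Tmod1*, *Cpox*, *Epb42*, *Bpgm*, *Uros* and *Fech*. Leaving it out lowered the log2 fold change of *Hba-a1* from 2.27 to 2.06 and that of *Klf1* from 2.199 to 1.84, and raised that of *Epb42* from 1.57 to 1.86.

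To set the genes beside the globins of their own library, each count was divided by the summed counts of *Hbb-bs* and *Hbb-bt* and given per 1000 of them. Of the other 33 genes, 24 were lower in every MSC-derived library than in every endogenous one, as were 83.1% of all genes tested, so that nothing is read from this share. Only *Ahsp*, *Epor* and *Tspo2* were above, where 6.19% of all genes were, and 6 overlapped, namely *Hba-a1*, *Hba-a2*, *Epb42*, *Klf1*, *Nfe2* and *Trim10*. Per 1000 beta-globin counts, *Epor* stood at 7.08, 5.94 and 6.72 in the MSC-derived libraries against 1.07, 1.60 and 1.302 in the endogenous ones, a log2 difference of 2.31. *Gypc* was at the other end, with 4.27, 5.09 and 4.63 against 38.8, 27.6 and 28.4, a log2 difference of -2.76. Without endogenous library 1, *Nfe2* was also above, 24 were below and 5 overlapped.

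**Figure D3:**
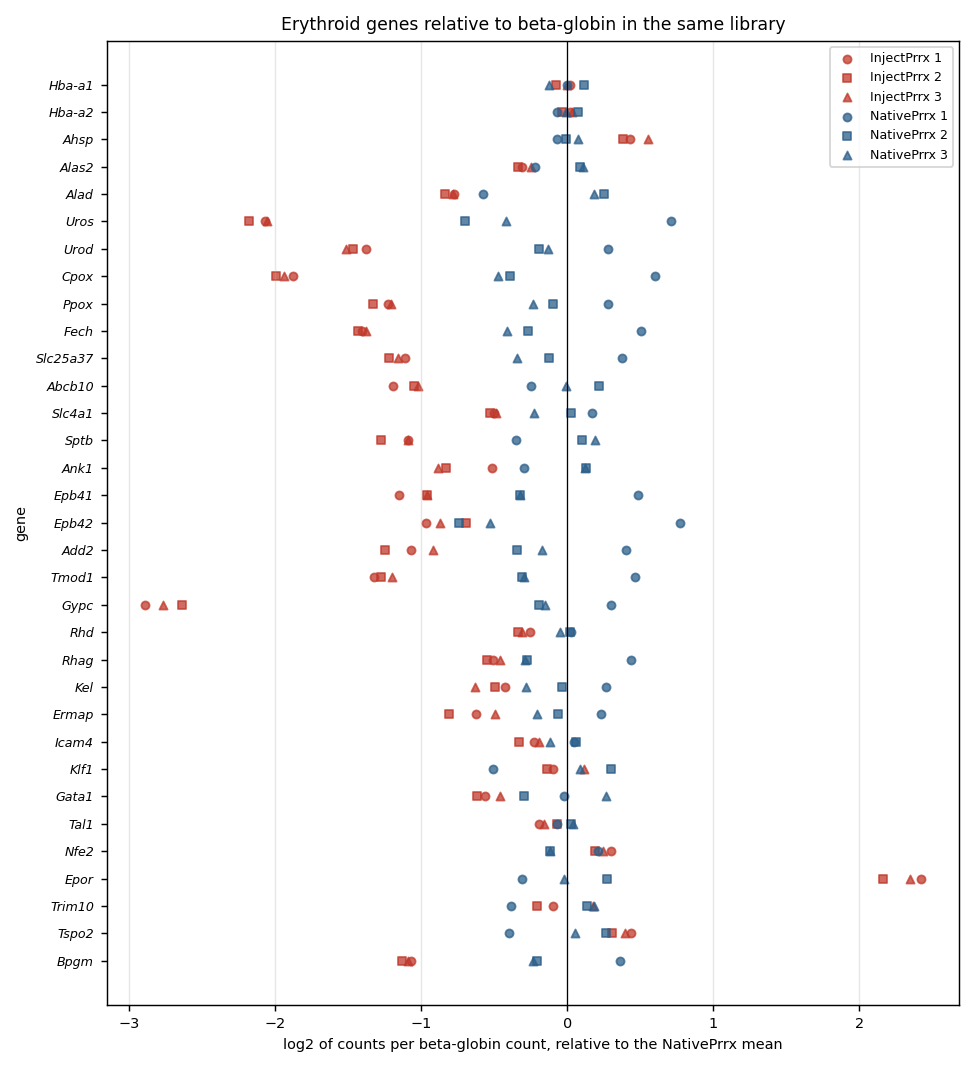
Counts of 33 genes per beta-globin count of the same library, as log2 relative to the endogenous mean, with one point per library. *Epor* lies 2.31 above the line on average, the alpha-globin genes lie at it, and *Gypc* lies farthest below it, at -2.76.

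Several of these genes have a related gene that serves other cells, and the values of each pair were set side by side with no test of the pair. *Alas1*, the enzyme of the first heme step in all cells, was also higher, with 54.6, 54.8 and 55.8 TPM against 21.6, 27.6 and 25.4 TPM and a log2 fold change of 1.58 (SE 0.14, adjusted p = 5.24e-05). The ratio of *Alas2* to *Alas1* was 3.81, 3.82 and 3.83 in the MSC-derived libraries and 2.42, 2.90 and 3.31 in the endogenous libraries. *Sptbn1*, the beta-spectrin of most other cells, fell by 1.41 (SE 0.13, adjusted p = 5.27e-05), *Sptan1*, its alpha-spectrin partner, by 0.93 (SE 0.12, adjusted p = 0.000314), and *Ank2* by 1.48 (SE 0.21, adjusted p = 0.000687). *Ank3* fell by 0.56 (SE 0.18, adjusted p = 0.0301) and *Epb41l2* by 0.91 (SE 0.11, adjusted p = 0.000293). *Sptb* was at 0.156, 0.133 and 0.155 times the TPM of *Sptbn1* in the MSC-derived libraries and at 0.0125, 0.0322 and 0.0378 times in the endogenous ones, so the non-erythroid spectrin was the more abundant one in all libraries.

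*Slc4a2*, an anion exchanger of many tissues, fell by 0.41 (SE 0.13, adjusted p = 0.0295), and *Slc4a1* was at 5.84, 5.99 and 6.28 times its TPM in the MSC-derived libraries against 1.41, 1.27 and 1.27 times. *Gata2*, the GATA factor of earlier progenitors, fell by 0.73 (SE 0.26, adjusted p = 0.0443), although its CPM overlapped between the groups. *Gata1* was at 2.89, 3.73 and 3.20 times the TPM of *Gata2* in the MSC-derived libraries and at 0.677, 0.415 and 0.723 times in the endogenous ones. *Add1*, the adducin of most cells, had 49.3, 48.7 and 49.6 TPM against 50.9, 49.7 and 45.9 TPM, which overlapped, and a log2 fold change from the counts of 0.46 (SE 0.08, adjusted p = 0.00153). *Tmod3* (-0.05), *Pgam1* (-0.07) and *Slc25a28* (0.30) did not pass the test, with adjusted p of 0.824, 0.389 and 0.142. Without endogenous library 1, *Pgam1* was called lower (-0.15, adjusted p = 0.00811) and *Slc25a28* higher (0.39, adjusted p = 0.00372).

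**Figure D4:**
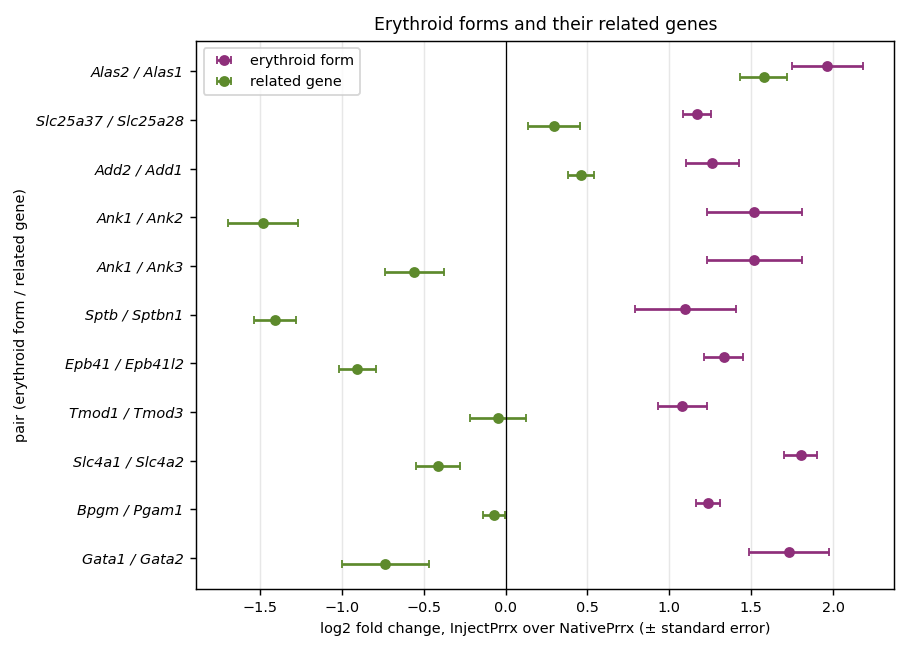
Log2 fold change, MSC-derived over endogenous, with standard error, for each erythroid form and the related gene beside it. The erythroid forms lie between 1.08 and 1.96, and the related genes of *Sptb*, *Ank1*, *Epb41*, *Slc4a1* and *Gata1* lie below 0. *Tmod3* (-0.05) and *Pgam1* (-0.07), which did not pass the test, lie just below 0.

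A further 61 genes known from red cells, though not all particular to them, were read in the same way. Of these 57 were tested, 39 were higher in the MSC-derived cells, 4 were lower and 14 did not pass the test. Among all genes tested, 31.3% were higher and 30.3% lower. The median of the further genes was 1.21 on the log2 scale. Without endogenous library 1 the counts were 43 and 7, beside 37.8% and 38.6% of all genes. In that fit 7 heme genes were higher and 1 lower, 12 membrane genes higher and 2 lower, 8 regulators higher and 3 lower, and 9 genes of iron uptake and maturation higher and 1 lower. Among 9 further genes of heme synthesis and transport, 5 were higher and 1 lower. *Tmem14c*, a mitochondrial porphyrin carrier, rose most, by 2.04 (SE 0.08, adjusted p = 4.89e-07). *Flvcr1*, a heme exporter, fell by 0.51 (SE 0.15, adjusted p = 0.0192).

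Of 15 further membrane genes, 11 were higher and 1 lower. The extremes were *Art4*, the Dombrock antigen, at 2.72 (SE 0.98, adjusted p = 0.0441), and *Bcam*, the Lutheran antigen, which also marks other cells, at -2.63 (SE 0.15, adjusted p = 3.59e-06). *Art4* was at 0 in endogenous library 1, and without that library its log2 fold change was 2.09. Of 13 further regulators, 7 were higher and 2 lower, from *Lmo2*, the bridge of the *Tal1* complex, at 3.21 (SE 0.21, adjusted p = 8.90e-06) to *Sox6* at -2.29 (SE 0.12, adjusted p = 3.25e-06). *Sox6* is also a cartilage transcription factor, and it had 4.46, 4.45 and 5.01 TPM against 39.2, 27.7 and 28.2 TPM.

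Of 13 genes of iron uptake and late maturation, 9 were higher and 4 did not pass the test. *Hebp1*, a heme-binding protein, rose most, by 3.56 (SE 0.23, adjusted p = 8.24e-06). *Tfrc*, the transferrin receptor, had the lowest called value, 0.45 (SE 0.16, adjusted p = 0.0466), with 16.5, 17.1 and 17.3 TPM against 23.5, 14.3 and 13.7 TPM. Its TPM overlapped between the groups through endogenous library 1. All 7 genes of red cell metabolism were higher, from *Prdx2*, a peroxiredoxin abundant in red cells, at 0.82 (SE 0.13, adjusted p = 0.000936) to *Blvrb*, biliverdin reductase B, at 3.76 (SE 0.17, adjusted p = 1.24e-06). Genes of the main list and of these further lists that were called higher, like those called lower, can also be made by other cells. Which cells they came from was not tested.

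Markers of macrophages and of leukocytes in general moved with the erythroid genes. All 18 genes listed as markers of the erythroblastic island macrophage were higher in the MSC-derived cells. Their median log2 fold change was 8.42, and they summed to 22899 to 23502 TPM against 558 to 605 TPM. The list includes general macrophage genes such as *Csf1r* and *C1qa*, so it does not tell island macrophages from others. *Cd163*, the hemoglobin scavenger receptor, had 84.9, 89.6 and 88.4 TPM against 0.160, 0.310 and 0.400 TPM. *Siglec1*, a macrophage adhesion receptor, was at 0 in endogenous library 1 and at 0.120 TPM in the other 2, against 27.4, 27.0 and 25.4 TPM. *Hmox1*, which degrades heme, had 5080, 4766 and 4775 TPM against 139.8, 176 and 164 TPM, a log2 fold change of 5.36. The general leukocyte markers summed to between 5149 and 5167 TPM against 447 to 496 TPM. Their medians, 8.42 and 4.04, stand beside the 1.73 of the 35 erythroid genes.

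*Gata1*, *Tal1* and *Nfe2* are also used by megakaryocytes, and *Gata1* by mast cells and eosinophils. Of 11 megakaryocyte markers tested, 2 were higher and 3 lower, with a median of -0.23, beside 31.3% and 30.3% of all genes. Without endogenous library 1, 2 were higher and 6 lower, beside 37.8% and 38.6% of all genes. The 6 include *Gp6*, which passed the filter on low counts only in that fit and is not among the 11. The list summed to 175 to 184 TPM against 40.5 to 66.5 TPM, but without *Pf4* to 13.3 to 15.1 TPM against 25.8 to 38.9 TPM, the opposite direction. *Pf4*, platelet factor 4, rose by 3.36, with 167, 169 and 161 TPM against 14.7, 27.6 and 22.1 TPM, and the other called higher was *Vwf*, at 1.80. *Itga2b*, the platelet integrin, did not pass the test (-0.35, adjusted p = 0.233). Of 9 tested markers of mast cells, basophils and eosinophils, 6 were higher (31.3% of all genes), with a median of 1.52. Without endogenous library 1, 8 were higher (37.8% of all genes). This list summed to 1624 to 1676 TPM against 195 to 231 TPM. Most of that was *Prg2*, named after its values were seen, at 1259, 1301 and 1255 TPM against 134, 162.5 and 161 TPM. *Epx*, the eosinophil peroxidase, rose by 2.76, and *Cpa3*, the mast cell protease, did not pass the test (0.56, adjusted p = 0.446), but was called higher without endogenous library 1 (1.26, adjusted p = 0.00522). The part that any of these cells played in the levels of the erythroid genes was not tested.

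**Figure D5:**
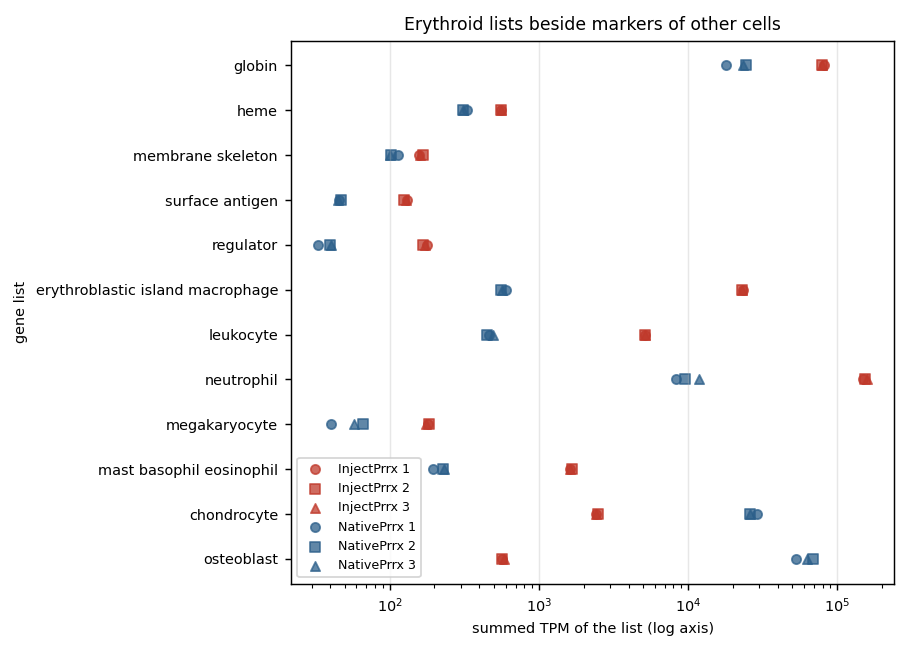
Summed TPM of the erythroid gene groups and of the marker lists of other cells in each library, on a log axis, with one point per library. The macrophage, leukocyte and neutrophil sums are higher in every MSC-derived library, and the chondrocyte and osteoblast sums are lower in every one.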

How the data were processed

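Bulk RNA was sequenced from 3 libraries of MSC-derived and 3 of endogenous Tomato+ cells, grouped by their labels. The authors made libraries from total RNA. Their reads were filtered (SOAPnuke), aligned (HISAT2, Bowtie2) and quantified per gene (RSEM). The submitters' processing notes name Bowtie2 2.2.5, RSEM 1.2.12 and the build mm9. For each library the authors deposited expected counts, which are RSEM estimates without normalization, and TPM, which is scaled per transcript length to a fixed sum per library. The deposited FPKM values and a further signal, which the authors scaled per library, were not used for any result. The 8 columns of group means were set aside, and no column of a single sample lacked a match.

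Expected counts were rounded (20.6% of values changed) and tested in R 4.3.3 with edgeR 4.0.16 (TMM, filterByExpr, glmQLFit, glmQLFTest). The p-values of the 14289 genes were adjusted by Benjamini-Hochberg, with 0.05 as the threshold. A standard error is the log2 fold change divided by the square root of F. TPM values are per library, and ± is the SD. A count of 3 corresponds to 0.121 to 0.136 CPM. Promoter letters were searched in RefSeq windows of GRCm38.p6, aligned with biopython 1.88, and plots made in matplotlib 3.10.9. The scripts were tested on simulated data. A first limit, on the recovery of large changes at all levels, was not met and was replaced by one on well-expressed genes. The limits on recovery and false calls were applied only to the spread that the fit assumes.

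The 35 genes and all other lists were chosen with earlier results of these data known. Every one of the 35 is named. Of the further erythroid lists, the text names the highest and lowest called gene, the related genes and a few fixed genes, and of the other cells a fixed few. Some genes that this rule covers are not reported here. Alternatives were DESeq2 1.42.0, other normalizations and filters, limma 3.58.1 on TPM, a robust fit, the replicate block, summed globin copies, a stricter threshold and each library left out. The study's methods used DESeq2 for their own comparison. The position of the genes per beta-globin count without endogenous library 1 was added after the data were seen, as were the list sums without *Prg4* or *Pf4*.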

Additional observations from a re-analysis of the deposited data

How the results depend on the processing

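Of the 35 genes, 33 were called higher and 1 lower, and across the other tools, normalizations and filters 31 to 33 were higher and 1 was lower (31 of 33 entries where globin copies were summed). With each library left out in turn, 31 to 34 were higher and 1 was lower, with a median log2 fold change from 1.67 to 1.77. At an adjusted p of 0.001 or less 27 were higher and 0 lower, since *Gypc* had 0.00892. The median of 1.73 became 1.18 by limma on log2(TPM + 1) and 1.32 on log2(TPM + 0.1), where the median of all genes moved by -0.40 and -0.41. *Uros* turned to -0.0716 and -0.0707 in these fits (adjusted p = 0.844 and 0.855). *Cpox* lost its call in them (adjusted p = 0.952 and 0.950) and with upper quartile factors (0.0549), and *Sptb* lost it in them (0.0706 and 0.103). Of the single-gene results under the alternatives, 641 kept direction and call, 19 lost the call, 1 gained it and 2 turned. All genes split into 4468 higher and 4333 lower, into 5042 and 3970 with library size alone, and into 3124 and 5962 or 3051 and 5948 by limma. With the replicate block 33 were higher and 1 lower with a median of 1.77, and all genes gave 4103 and 3920. The deviations of same-numbered libraries correlated at 0.0129, 0.00221 and 0.0178, which gave no sign that the numbers pair the samples. With 3 libraries per group this check cannot exclude pairing. The block changed no call on the 35. With 3 libraries per group small changes can go uncalled.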
